A study of Mus musculus with 9 samples.

Results

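Solute carriers are the membrane proteins that move ions, metals, nucleosides, vitamins, nutrients and mitochondrial metabolites across cell and organelle membranes. Described here are the solute carrier genes outside the main sugar and amino acid families: every gene whose symbol starts with Slc and a number, leaving out the 7 families Slc1, Slc2, Slc3, Slc6, Slc7, Slc16 and Slc38. The rule found 208 genes in 40 families among 264 solute carrier rows and 14912 rows in all, and 148 of them, in 34 families, were tested because at least 3 of the 9 libraries held a normalized count of 5 or more. The choice is by name, so it keeps a few genes that are not transporters, such as Slc9a3r1 (the scaffold protein NHERF1), and carriers of amino acids in the families Slc36 and Slc43.

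RNA was sequenced by a modified CEL-Seq protocol, which counts reads at the 3' end of transcripts, in CD4+ T cells of the mouse strain B6.Cg-Foxp3tm2(EGFP)Tch/J, hemizygous for Foxp3<tm2Tch>, whose eGFP reports Foxp3, the factor that defines regulatory T cells; iTreg cells are CD4+ T cells in which Foxp3 was induced in culture. All 3 groups carry this reporter and hold 3 libraries each: eGFP-negative cells at day 0, before any culture; eGFP-positive TGFβ-iTreg cells after 5 days with TGFβ at 10 ng/ml, IL-2 at 300 U/ml, anti-CD3 and anti-CD28 (1 µg/ml each); and eGFP-positive mTO-iTreg cells after 5 days with organoids of mouse colorectal tumours, IL-2 at 20 U/ml and the same stimulating antibodies, with no TGFβ listed among the additions. Culture, activation and the sort for eGFP therefore differ together between day 0 and either iTreg group, and IL-2 dose, TGFβ and organoids differ together between the iTreg groups, so these cannot be told apart. The labels give neither the age of the mice nor whether libraries came from separate animals, cultures or organoid lines, so the p-values measure spread among these samples only. The form of the library codes also differs between the mTO-iTreg group and the other 2, and this cannot be told apart from the group.

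Carriers of the family Slc25 sit mostly in the inner mitochondrial membrane and exchange ADP for ATP, import phosphate and move citrate, aspartate, iron and folates between matrix and cytosol. In zinc balance, Slc30 proteins move zinc out of the cytosol and Slc39 proteins move it in, while metallothioneins bind it. Other families set cell volume and pH, and yet others take up nucleosides and vitamins or feed sugars into the Golgi apparatus for glycan synthesis, all of which activated T cells draw on when they grow and divide.

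Libraries held 2078223 to 9944952 counts, and a single count was worth 0.494 to 2.69 normalized counts, which limits the precision of rarely read genes. The T cell identity list summed to 28015 to 30608 normalized counts on day 0, 17568 to 18912 in TGFβ-iTreg and 20770.4 to 24988 in mTO-iTreg libraries, and none of its 9 measured genes was at 0 in any library. Of 16 myeloid and antigen-presenting markers 11 were in the table. They summed to 2672 to 9926 on day 0, with the high value in replicate 3, 2906 to 3151 in TGFβ-iTreg and 3049 to 4184 in mTO-iTreg libraries. Of 18 epithelial markers 10 were in the table, summing to 18.8 to 25.3, 139 to 155 and 43.7 to 157 in the same order. In mTO-iTreg libraries Epcam stood at 21.1, 34.1 and 89.0, Cdh1 at 13, 9.31 and 20.6 and Lgals4 at 9.55, 9.93 and 9.96. Elf3 stood there at 0, 0 and 31.9, Krt18 at 0, 0 and 4.65, Vil1 at 0, 2.48 and 0 and Muc2 at 0, 0 and 0.664, while Lgr5, Esrp1 and Cldn4 were at 0 in all 3. Epcam and Cdh1 carried most of the epithelial sum, rose in both iTreg groups against day 0 and were not called between them. The part of such cells in the differences described here was not tested. In bulk RNA, fewer cells of a type and less RNA per cell cannot be told apart.

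Against day 0, 18 of 148 tested solute carriers rose and 7 fell in TGFβ-iTreg cells (limma, Benjamini-Hochberg adjusted p under 0.05 over all genes tested). Over all 10983 tested genes, 9.78% rose and 8.8% fell, and the shares of the solute carriers were 12.2% and 4.73%. In mTO-iTreg cells 25 rose and 13 fell against day 0, or 16.9% and 8.78%, where 19.4% and 14.5% of all tested genes did. Between the iTreg groups, 19 were higher and 18 lower in mTO-iTreg cells, or 12.8% and 12.2%, where 14.9% and 11.8% of all tested genes were. Counting libraries instead, with no overlap between groups, 28 of the 148 were higher and 25 lower in TGFβ-iTreg cells than on day 0 (18% and 17.8% of all tested genes were), 29 and 26 in mTO-iTreg cells (25.8% and 20.3%), and 30 and 25 in mTO-iTreg against TGFβ-iTreg cells (25.9% and 18.7%). The median log2 change of the 148 was 0.05, 0.09 and -0.04 in these comparisons, beside -0.02, 0.09 and 0.13 for all genes. Both comparisons with day 0 use the same day 0 libraries. Of the 148, 59 were called in at least 1 comparison and 89 in none.

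The upward share of the calls against day 0 moved with the scaling and with the model fitted. It was 72% in TGFβ-iTreg cells and 65.8% in mTO-iTreg cells with the deposited size factors, beside 52.6% and 57.1% of the calls over all genes. With library totals made equal it was 86.2% (25 rose, 4 fell) and 76.2% (32 rose, 10 fell), beside 75.4% and 70.4% over all genes. That scaling took the median over all genes from -0.02 to 0.22 and from 0.09 to 0.31 (log2). With TMM factors it was 79.2% (19 rose, 5 fell) and 63.9% (23 rose, 13 fell), beside 54.0% and 53.5% over all genes. With limma-voom on recovered counts, which used the TMM factors too, it was 57.1% (8 rose, 6 fell) and 50% (17 rose, 17 fell), beside 44.6% and 48.4%. Without day 0 replicate 3, the library with the high myeloid sum, 13 rose and 5 fell in TGFβ-iTreg cells and 21 rose and 12 fell in mTO-iTreg cells. Single genes were followed through 17 refits (other pseudocounts, filters and scalings, a replicate block, limma-voom and leaving out each library in turn): none of the called solute carriers changed sign in any of them, and 10 of 25, 22 of 38 and 19 of 37 calls were kept in every refit that tested the gene. Where the call of a solute carrier, or of a gene from the function lists below, is given with no refit named, it was kept in all of them. Calls of cell type markers were not followed through the refits.

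**Figure D1:**
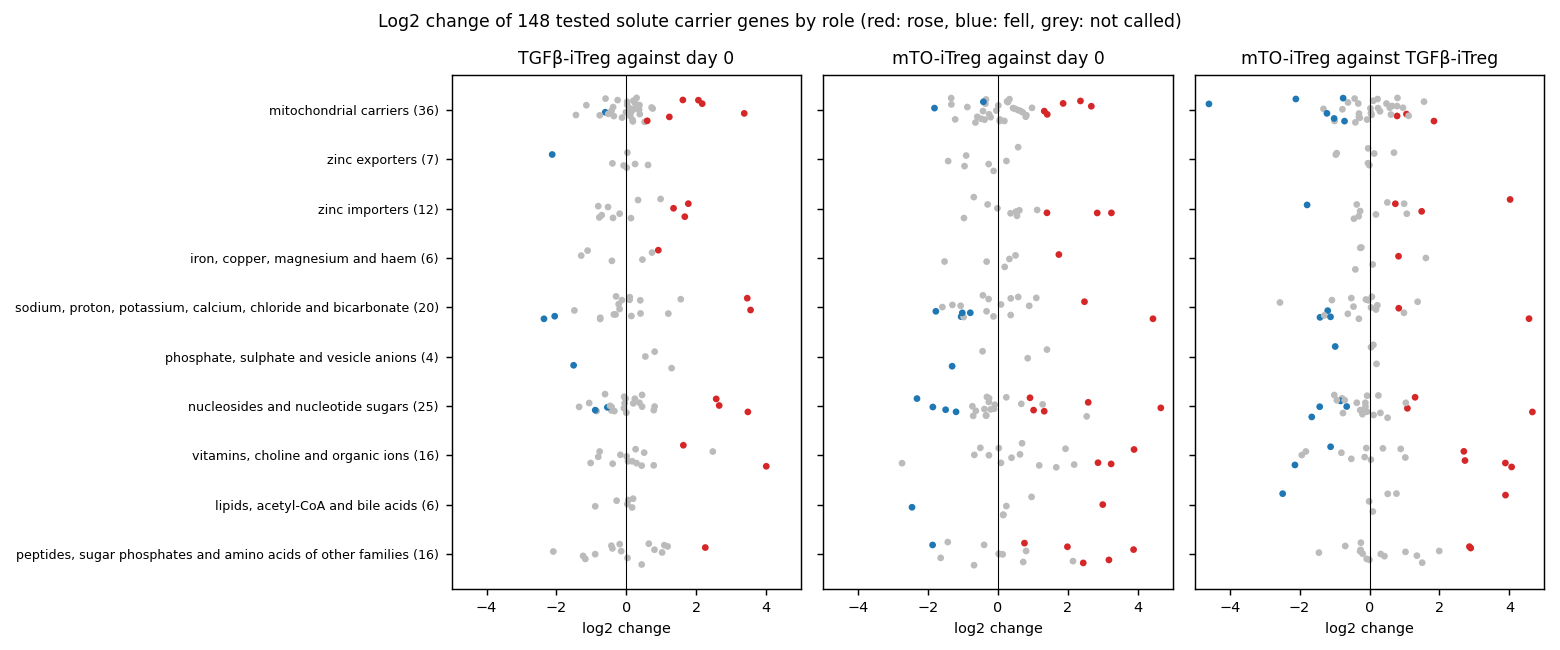
Log2 change (horizontal axis) of the 148 tested solute carriers, one point per gene, in rows by role with the number tested in brackets in 3 panels: each iTreg group relative to day 0, then mTO-iTreg relative to TGFβ-iTreg. Red points rose, blue points fell and grey points were not called; the 7 zinc exporters hold 1 call, and the 36 mitochondrial carriers hold 7, 7 and 9.

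The plot by role shows calls in both directions in most roles. Among mitochondrial carriers 6 of 36 rose and 1 fell in TGFβ-iTreg cells, 5 rose and 2 fell in mTO-iTreg cells, and 3 were higher and 6 lower in mTO-iTreg than in TGFβ-iTreg cells. Among 12 zinc importers the same counts were 3 and 0, 3 and 0, and 3 and 1. Without the families Slc25, Slc30 and Slc39, 93 tested genes remained, of which 9 rose and 5 fell, 17 rose and 11 fell, and 13 were higher and 11 lower.

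Promoter sequences are shown for 4 called members that carry an E-box, the letters CACGTG, in the 250 bases before a RefSeq start site (GRCm38.p6), as examples, with 2 motifs and with 1, among the E-box members whose call held in every refit in at least 1 comparison (Slc12a7, Slc29a1 and Slc43a1 are others). The E-box was searched on both strands and reads the same on each; it contains ACGTG, the core of the hypoxia response element. Among 32851 such windows 6.02% held an E-box, as did 8.49% of the windows of tested genes and 13.7% of those of tested solute carriers (21 of 153 windows). For the called solute carriers it was 15.4% (10 of 65 windows), near the share of the tested ones. Counted by gene, which can have several windows, 46 of the 59 called solute carriers had a window and 10 of these held the motif: Slc12a7, Slc20a1, Slc25a1, Slc25a13, Slc25a36, Slc29a1, Slc35a5, Slc36a1, Slc39a8 and Slc43a1. Some of these rose and some fell, and a match to 6 letters is a description of the sequence, not a binding site. Capitals mark the E-box, each sequence runs 5′ to 3′ on the gene's own strand, and bases that GENCODE M21 places inside the gene are left off.
Slc25a1: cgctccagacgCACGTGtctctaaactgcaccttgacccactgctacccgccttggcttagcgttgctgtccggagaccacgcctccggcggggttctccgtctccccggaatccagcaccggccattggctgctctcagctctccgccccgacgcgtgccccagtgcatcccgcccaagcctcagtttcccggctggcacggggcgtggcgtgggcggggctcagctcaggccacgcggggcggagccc
Slc20a1: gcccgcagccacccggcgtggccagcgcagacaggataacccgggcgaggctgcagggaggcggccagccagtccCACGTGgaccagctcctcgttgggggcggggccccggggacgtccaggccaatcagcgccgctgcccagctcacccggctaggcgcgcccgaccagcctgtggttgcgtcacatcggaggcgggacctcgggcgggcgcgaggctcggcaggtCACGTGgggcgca
Slc35a5: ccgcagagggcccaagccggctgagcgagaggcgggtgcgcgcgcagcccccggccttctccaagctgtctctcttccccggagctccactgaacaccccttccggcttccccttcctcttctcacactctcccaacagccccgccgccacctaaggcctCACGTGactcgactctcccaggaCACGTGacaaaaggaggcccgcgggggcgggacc
Slc36a1: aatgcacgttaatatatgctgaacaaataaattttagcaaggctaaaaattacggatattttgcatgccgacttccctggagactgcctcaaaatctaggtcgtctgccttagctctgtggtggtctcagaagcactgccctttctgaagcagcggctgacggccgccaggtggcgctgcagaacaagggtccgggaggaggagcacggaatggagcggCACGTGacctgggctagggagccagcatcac
These lie at chr16:17928220-17928469 on the minus strand, chr2:129198523-129198763 on the plus strand, chr16:45158707-45158923 on the minus strand and chr11:55204090-55204339 on the plus strand. The E-boxes begin 239 bases before the RefSeq start of Slc25a1, 175 and 22 before that of Slc20a1, 90 and 67 before that of Slc35a5 and 31 before that of Slc36a1. These distances include the bases left off the printed ends, 9 for Slc20a1 and 33 for Slc35a5. A second window of Slc20a1 held none.

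Mitochondrial carriers of adenine nucleotides and phosphate were highest in TGFβ-iTreg cells, and the citrate carrier in mTO-iTreg cells. Slc25a5 encodes an ADP/ATP translocase, which exports the ATP made by oxidative phosphorylation (chromosome X, 36795651 to 36798807). Its normalized counts were 2237, 2156 and 2554 on day 0, 3566, 3529 and 3381 in TGFβ-iTreg cells and 1636, 1712 and 1846 in mTO-iTreg cells, and no 2 groups overlapped. It rose 1.51-fold in TGFβ-iTreg cells (log2 change 0.60 ± 0.11 SE, adjusted p = 0.0022) and was 2.02-fold lower in mTO-iTreg than in TGFβ-iTreg cells (log2 change -1.01 ± 0.11 SE, adjusted p = 2.2e-05). Among the 148 genes it was the one called in opposite directions against day 0: in mTO-iTreg cells it fell 1.34-fold (log2 change -0.42 ± 0.11 SE, adjusted p = 0.0096). That call ended when library totals were made equal (adjusted p = 0.22; 0.0056 to 0.22 over the refits). Slc25a4, the other common ADP/ATP translocase, stood at 198, 231 and 322 on day 0, 617, 596 and 519 in TGFβ-iTreg cells and 205, 266 and 277 in mTO-iTreg cells (chromosome 8, 46206797 to 46211284). It rose 2.31-fold in TGFβ-iTreg cells (log2 change 1.23 ± 0.21 SE, adjusted p = 0.0011), with every library above every other, while mTO-iTreg and day 0 libraries overlapped (log2 change 0.01 ± 0.21 SE, adjusted p = 0.98; 95% interval of the log2 change -0.43 to 0.45). The translocases are close copies of each other, and how reads divide between the pair is uncertain.

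Slc25a3, the carrier that imports the phosphate used by ATP synthase, stood at 1123, 1159 and 1009.6 on day 0, 1387, 1371 and 1508 in TGFβ-iTreg cells and 961, 991 and 678 in mTO-iTreg cells. It was 1.62-fold lower in mTO-iTreg than in TGFβ-iTreg cells (log2 change -0.72 ± 0.15 SE, adjusted p = 0.0034), and although neither group overlapped day 0, it passed against day 0 in neither (adjusted p = 0.10 and adjusted p = 0.097). Slc25a1, whose promoter is shown above, exports citrate from mitochondria, a source of acetyl-CoA for fatty acid and sterol synthesis (chromosome 16, 17925223 to 17928219). Its values were 151, 142 and 58 on day 0, 293, 355 and 353 in TGFβ-iTreg cells and 547, 895 and 674 in mTO-iTreg cells, rising in steps that do not overlap. It rose 2.85-fold in TGFβ-iTreg cells (log2 change 1.61 ± 0.31 SE, adjusted p = 0.0029) and 6.02-fold in mTO-iTreg cells (log2 change 2.67 ± 0.31 SE, adjusted p = 2.5e-05). The 2.12-fold step from TGFβ-iTreg to mTO-iTreg cells (log2 change 1.05 ± 0.31 SE, adjusted p = 0.023) was less stable, with an adjusted p of 0.079 with TGFβ-iTreg replicate 1 left out and 0.093 and 0.059 with mTO-iTreg replicates 2 and 3 left out. It ranged from 0.0021 to 0.093 over the refits.

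**Figure D2:**
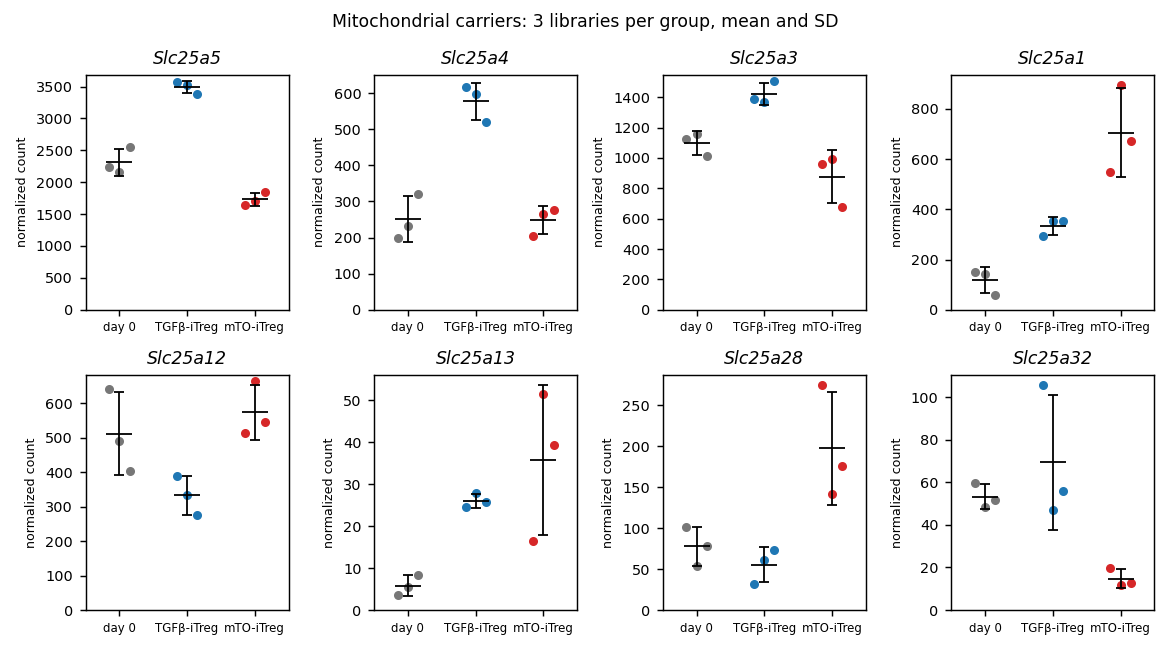
Normalized counts (vertical axes, from 0) of 8 mitochondrial carriers in the 3 libraries of each group; points are libraries, horizontal bars the mean and vertical bars the SD. Slc25a5 and Slc25a4 are highest in the 3 TGFβ-iTreg libraries, Slc25a1 and Slc25a28 in the 3 mTO-iTreg libraries, and Slc25a32 is lowest in the 3 mTO-iTreg libraries.

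Between the iTreg groups, 1 of the aspartate carriers (Slc25a12), 1 of the mitoferrins (Slc25a28) and the folate carrier Slc25a32 were called, as the plot of mitochondrial carriers shows. Slc25a12 and Slc25a13 both exchange aspartate for glutamate in the malate-aspartate shuttle. Slc25a12 stood at 640.4, 489 and 403 on day 0, 389, 333 and 277 in TGFβ-iTreg cells and 512, 663 and 545 in mTO-iTreg cells. It was 1.72-fold higher in mTO-iTreg than in TGFβ-iTreg cells (log2 change 0.79 ± 0.20 SE, adjusted p = 0.0097), without overlap. Its fall from day 0 to TGFβ-iTreg cells (-0.60, adjusted p = 0.048) ended in 10 of the 17 refits: the adjusted p was 0.10 and 0.17 with TGFβ-iTreg replicates 2 and 3 left out, 0.19 and 0.091 with day 0 replicates 1 and 2 left out, 0.056 and 0.059 with mTO-iTreg replicates 1 and 3 left out, 0.0502 with TMM factors, 0.21 with libraries scaled to equal totals, 0.065 with limma-voom and 0.061 with no filter. It ranged from 0.025 to 0.21 over the refits. Slc25a13 was read less, at 3.51, 5.38 and 8.44 on day 0, 24.6, 27.8 and 25.7 in TGFβ-iTreg cells and 16.4, 51.5 and 39.2 in mTO-iTreg cells, from 12 counts in all on day 0. Both iTreg groups lay above day 0. In mTO-iTreg cells it rose 6.18-fold (log2 change 2.36 ± 0.59 SE, adjusted p = 0.0074). That call ended with limma-voom (0.067, within 0.0047 to 0.067 over the refits). The rise in TGFβ-iTreg cells (adjusted p = 0.028) did not hold in every refit, with an adjusted p of 0.062, 0.084 and 0.078 with TGFβ-iTreg replicates 1, 2 and 3 left out, 0.077 and 0.0505 with day 0 replicates 1 and 2 left out, 0.17 with limma-voom and 0.057 with no filter. It ranged from 0.016 to 0.17 over the refits.

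Slc25a10, which exchanges dicarboxylates for phosphate, stood at 3.51, 16.1 and 9.49 on day 0, 29.5, 46.8 and 49.4 in TGFβ-iTreg cells and 38.9, 14.3 and 63.1 in mTO-iTreg cells, above day 0 in every iTreg library. Its calls (log2 changes 2.17 and 1.86, with adjusted p = 0.034 and adjusted p = 0.041) were less stable: the first ended in some refits, at an adjusted p of 0.052, 0.10 and 0.11 with TGFβ-iTreg replicates 1, 2 and 3 left out, 0.11 and 0.056 with day 0 replicates 1 and 3 left out, 0.10 with limma-voom and 0.060 with no filter, in a range of 0.019 to 0.11. The second ended in some, at 0.059 and 0.058 with TGFβ-iTreg replicates 2 and 3 left out, 0.14 and 0.063 with day 0 replicates 1 and 3 left out, 0.11 and 0.17 with mTO-iTreg replicates 1 and 3 left out, 0.15 with limma-voom and 0.069 with no filter, in a range of 0.015 to 0.17.

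Slc25a28 is mitoferrin 2, which imports iron into mitochondria. It stood at 102, 53.8 and 78.1 on day 0, 32, 61 and 73.1 in TGFβ-iTreg cells and 275, 142 and 176 in mTO-iTreg cells. It was 3.57-fold higher in mTO-iTreg than in TGFβ-iTreg cells (log2 change 1.84 ± 0.38 SE, adjusted p = 0.0030). All mTO-iTreg libraries were also above day 0 (log2 change 1.32 ± 0.38 SE, adjusted p = 0.015), but that call ended without day 0 replicate 2 (0.059) and without mTO-iTreg replicate 1 (0.081). It ranged from 0.0070 to 0.081 over the refits. The other mitoferrin, Slc25a37, was not called (log2 change 0.97 ± 0.41 SE, adjusted p = 0.080 against day 0). Slc25a32 carries folates into mitochondria, where they feed one-carbon metabolism (chromosome 15, 39091231 to 39112716). Its values were 59.7, 48.4 and 51.7 on day 0, 106, 46.8 and 55.8 in TGFβ-iTreg cells and 19.8, 11.8 and 12.6 in mTO-iTreg cells. Every mTO-iTreg library was below all others. It fell 3.61-fold against day 0 (log2 change -1.82 ± 0.44 SE, adjusted p = 0.0062) and was 4.72-fold lower than in TGFβ-iTreg cells (log2 change -2.11 ± 0.44 SE, adjusted p = 0.0034). Slc25a53, a carrier whose substrate is not named here, was lower in mTO-iTreg cells as well, at 22.1, 54.9 and 28.7 in TGFβ-iTreg and 0.682, 0.62 and 0 in mTO-iTreg cells (adjusted p = 0.0032). With 2 counts in all in mTO-iTreg cells, the pooled ratio of TGFβ-iTreg to mTO-iTreg was 86.9 (95% counting interval 23.6 to 724).

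Of a list of other mitochondrial transporters and channels, all 23 genes in the table were tested. It gave 4 that rose and 1 that fell in TGFβ-iTreg cells, 3 and 4 in mTO-iTreg cells, and 2 higher and 4 lower in mTO-iTreg than in TGFβ-iTreg cells. Shares over all tested genes were 9.78% and 8.8%, 19.4% and 14.5%, and 14.9% and 11.8% in the same order. The list's median log2 changes were 0.06, 0.08 and -0.09, beside -0.02, 0.09 and 0.13 for all genes. The genes named from this list and from the lists on zinc, iron and ion pumps were chosen after their values were seen. Ucp2, an uncoupling protein that belongs to the Slc25 family under another name, stood at 6209, 6215 and 7846 on day 0, 7298, 6355 and 5570.4 in TGFβ-iTreg cells and 3120.4, 3729.5 and 4518 in mTO-iTreg cells. It fell 1.78-fold in mTO-iTreg cells against day 0 (log2 change -0.84 ± 0.15 SE, adjusted p = 0.00073) and was lower there than in TGFβ-iTreg cells (log2 change -0.77 ± 0.15 SE, adjusted p = 0.0022), without overlap. Letm1, which exchanges cations across the inner membrane, was lowest in mTO-iTreg cells, at 89.3, 163 and 114 against 270.2, 261 and 198 on day 0 (log2 change -1.02 ± 0.25 SE, adjusted p = 0.0064).

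In zinc transport, 3 of 12 importers rose in each iTreg group against day 0, and 1 of 7 exporters, Slc30a1, fell in TGFβ-iTreg cells. Over all tested genes 9.78% rose and 8.8% fell in TGFβ-iTreg and 19.4% rose in mTO-iTreg cells, so with so few genes these counts are read as descriptions only. Slc39a1 imports zinc at the cell surface (chromosome 3, 90248172 to 90253612). It stood at 54.4, 56.4 and 96 on day 0, 226, 187 and 232 in TGFβ-iTreg cells and 128, 212 and 205 in mTO-iTreg cells. Every iTreg library was above every day 0 library. It rose 3.12-fold in TGFβ-iTreg cells (log2 change 1.67 ± 0.29 SE, adjusted p = 0.0014) and 2.64-fold in mTO-iTreg cells (log2 change 1.40 ± 0.29 SE, adjusted p = 0.0020), and the iTreg groups overlapped (log2 change -0.27, 95% interval -0.89 to 0.35). Slc39a4, known as the zinc importer of the intestine, stood at 19.3, 10.8 and 22.2 on day 0, 61.5, 40.0 and 34.6 in TGFβ-iTreg cells and 153, 91.2 and 141 in mTO-iTreg cells. It rose 7.38-fold in mTO-iTreg cells (log2 change 2.84 ± 0.42 SE, adjusted p = 0.00019). The smaller difference in TGFβ-iTreg cells (1.35, adjusted p = 0.041) did not hold in every refit, with an adjusted p of 0.14, 0.081 and 0.059 with TGFβ-iTreg replicates 1, 2 and 3 left out, 0.059 and 0.11 with day 0 replicates 1 and 2 left out, 0.060 and 0.060 with mTO-iTreg replicates 1 and 3 left out, 0.29 with limma-voom and 0.059 with no filter, within 0.017 to 0.29 over the refits. That between the iTreg groups (1.49, adjusted p = 0.019) did not hold in every refit either, with 0.061 and 0.074 with TGFβ-iTreg replicates 2 and 3 left out and 0.083 and 0.071 with mTO-iTreg replicates 1 and 3 left out. It ranged from 0.0016 to 0.083 over the refits. Epcam, an epithelial surface marker, stood at 5.26, 18.8 and 7.38 on day 0, 93.5, 113 and 74.1 in TGFβ-iTreg and 21.1, 34.1 and 89.0 in mTO-iTreg cells, with mTO-iTreg replicate 3 inside the TGFβ-iTreg range and replicates 1 and 2 below it. Lgals4, another, stood at 3.51, 0 and 11.6 on day 0, 0, 3.39 and 0.494 in TGFβ-iTreg and 9.55, 9.93 and 9.96 in mTO-iTreg cells, above TGFβ-iTreg in every mTO-iTreg library like Slc39a4, and was not called. Cdh1, also an epithelial marker, stood at 5.26, 0 and 2.11 on day 0 and 34.4, 25.1 and 52.9 in TGFβ-iTreg cells. In mTO-iTreg cells Cdh1 stood at 13, 9.31 and 20.6, below TGFβ-iTreg in every library and so opposite to Slc39a4. It was not called between the iTreg groups. The part of epithelial RNA in the values of Slc39a4 was not tested.

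Slc39a2 was nearly absent outside mTO-iTreg cells, at 0, 5.38 and 2.11 on day 0, 0, 0 and 2.96 in TGFβ-iTreg cells and 13.6, 46.5 and 23.2 in mTO-iTreg cells, on 4, 6 and 130 counts by group. It was higher in mTO-iTreg than in TGFβ-iTreg cells (log2 change 4.02 ± 0.97 SE, adjusted p = 0.0076) and than on day 0 (log2 change 3.24 ± 0.97 SE, adjusted p = 0.019), the latter call ending without day 0 replicate 1 (0.071) and without mTO-iTreg replicate 2 (0.080). It ranged from 0.0051 to 0.080 over the refits. Slc39a8, an importer of zinc and manganese, was highest in TGFβ-iTreg cells, at 19.3, 10.8 and 6.33 on day 0, 39.4, 40.0 and 41 in TGFβ-iTreg cells and 9.55, 13.6 and 9.96 in mTO-iTreg cells. Its values in TGFβ-iTreg cells lay within a narrow range above both other groups (log2 change 1.77 ± 0.56 SE, adjusted p = 0.042 against day 0; log2 change -1.79 ± 0.56 SE, adjusted p = 0.031 for mTO-iTreg against TGFβ-iTreg). These calls were fragile: the adjusted p was 0.093, 0.11 and 0.12 with TGFβ-iTreg replicates 1, 2 and 3 left out, 0.077 and 0.12 with day 0 replicates 2 and 3 left out, 0.051 with mTO-iTreg replicate 1 left out, 0.052 with limma-voom, 0.085 with no filter and 0.061 with the replicate block for the first (range 0.020 to 0.12). It was 0.071, 0.084 and 0.090 with TGFβ-iTreg replicates 1, 2 and 3 left out, 0.082 and 0.075 with mTO-iTreg replicates 1 and 3 left out and 0.064 with no filter for the second (range 0.0058 to 0.090). Among importers that were not called were Slc39a10, at 170.3 ± 66.8, 113 ± 19.8 and 93.8 ± 62.8 (SD, n = 3) in the order of the groups, Slc39a6 and Slc39a14.

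Slc30a1 pumps zinc out of the cell and is a known target of the metal-sensing factor MTF1 (chromosome 1, 191906767 to 191913247). Its promoter is shown because it holds a metal response core, TGCNCNC on either strand, which begins 43 bases before the RefSeq start. The capitals are its reverse complement. That core is short and common: 44.4% of all windows and 51% of those of tested solute carriers held one.
Slc30a1: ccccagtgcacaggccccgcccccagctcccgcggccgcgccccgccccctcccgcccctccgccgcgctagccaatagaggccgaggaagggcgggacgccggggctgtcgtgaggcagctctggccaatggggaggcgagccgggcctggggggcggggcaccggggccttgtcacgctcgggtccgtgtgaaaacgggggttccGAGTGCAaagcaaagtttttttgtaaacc
The stretch is chr1:191906531-191906766 on the plus strand, from the RefSeq table of GRCm38.p6, with 14 bases before the RefSeq start left off its end. Slc30a1 stood at 70.2, 99.5 and 67.5 on day 0, 7.38, 27.1 and 24.2 in TGFβ-iTreg cells and 45.7, 15.5 and 31.9 in mTO-iTreg cells, so every iTreg library was below every day 0 library. It fell 4.04-fold in TGFβ-iTreg cells (log2 change -2.12 ± 0.56 SE, adjusted p = 0.018). That call ended without day 0 replicate 2 (0.061) and without TGFβ-iTreg replicate 1 (0.064). It ranged from 0.011 to 0.064 over the refits. In mTO-iTreg cells the difference did not pass (log2 change -1.42 ± 0.56 SE, adjusted p = 0.065), and the 6 other exporters tested were called in no comparison.

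Of the zinc-buffering list, 3 of the 4 genes in the table were tested. Mt2, a metallothionein, stood at 3.51, 0 and 3.16 on day 0, 2.46, 2.03 and 3.95 in TGFβ-iTreg cells and 27.3, 24.2 and 66.4 in mTO-iTreg cells, with the mTO-iTreg libraries above all others. It rose 17.7-fold against day 0 (log2 change 3.77 ± 0.82 SE, adjusted p = 0.0029) and was 14-fold higher than in TGFβ-iTreg cells (log2 change 3.28 ± 0.82 SE, adjusted p = 0.0094). That call ended without mTO-iTreg replicate 3 (0.052, within 0.0018 to 0.052 over the refits). Mt1, its neighbour in the genome, stood at 1.75, 10.8 and 15.8 on day 0, 44.3, 23.7 and 45.5 in TGFβ-iTreg cells and 35.5, 13.6 and 41.8 in mTO-iTreg cells. Its rise in TGFβ-iTreg cells (adjusted p = 0.048) ended in 11 of 17 refits: the adjusted p was 0.16 and 0.056 with day 0 replicates 1 and 2 left out, 0.13, 0.067 and 0.14 with TGFβ-iTreg replicates 1, 2 and 3 left out, 0.064 and 0.061 with mTO-iTreg replicates 1 and 3 left out, 0.055 with a pseudocount of 0.5, 0.083 with no filter, 0.0503 with the replicate block and 0.16 with limma-voom. It ranged from 0.028 to 0.16 over the refits.

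**Figure D3:**
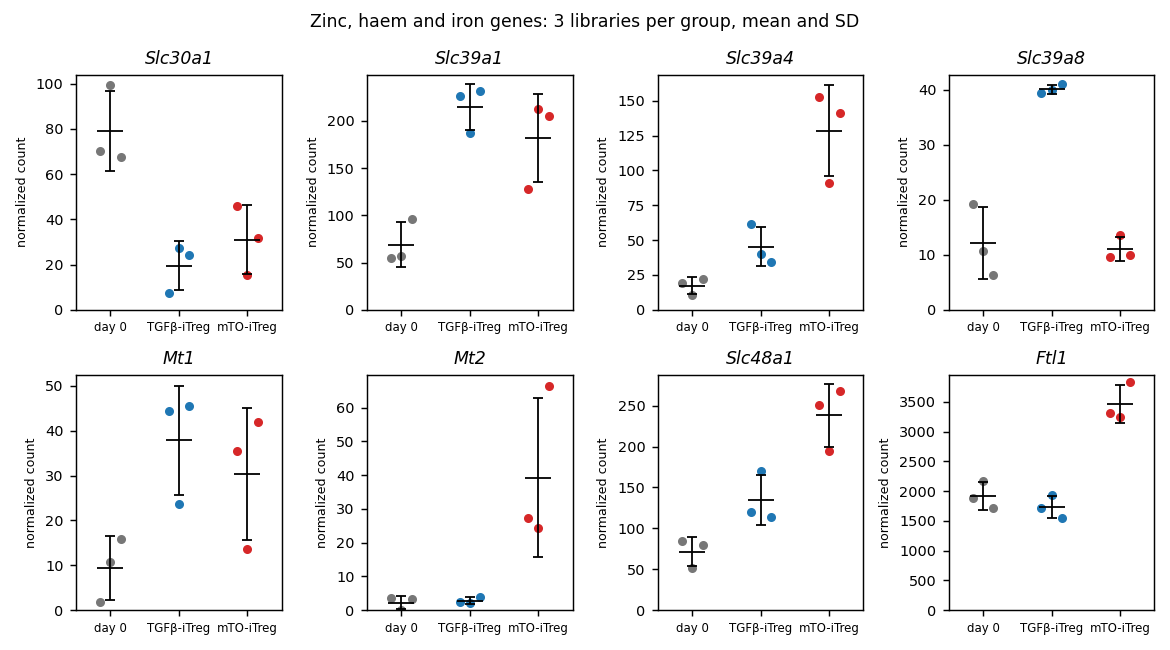
Normalized counts (vertical axes, from 0) of zinc, haem and iron genes in the 3 libraries of each group; points are libraries, horizontal bars the mean and vertical bars the SD. Slc39a4, Mt2, Slc48a1 and Ftl1 are highest in the mTO-iTreg libraries, Slc39a8 in the TGFβ-iTreg libraries, and Slc30a1 is highest on day 0.

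Of 6 tested carriers of iron, copper, magnesium and haem, Slc48a1 alone was called, in all 3 comparisons. That is 16.7% in each, where 18.6%, 33.9% and 26.6% of all tested genes were called in either direction. Slc48a1 moves haem out of endosomes and lysosomes (chromosome 15, 97778520 to 97792692). Its values were 84.2, 51.1 and 79.1 on day 0, 121, 169.5 and 114 in TGFβ-iTreg cells and 251, 195 and 268 in mTO-iTreg cells, in steps without overlap. It rose 3.33-fold in mTO-iTreg cells (log2 change 1.74 ± 0.28 SE, adjusted p = 0.00031). The steps on either side of TGFβ-iTreg cells were less stable. One was 0.91 from day 0, with an adjusted p of 0.034 that became 0.060, 0.14 and 0.051 with TGFβ-iTreg replicates 1, 2 and 3 left out, 0.11 with day 0 replicate 2 left out and 0.13 with limma-voom (range 0.011 to 0.14). The other was 0.83 to mTO-iTreg cells, with an adjusted p of 0.040 that became 0.11 and 0.13 with TGFβ-iTreg replicates 1 and 3 left out, 0.11 and 0.13 with mTO-iTreg replicates 1 and 3 left out, 0.058 with TMM factors, 0.051 with libraries scaled to equal totals and 0.056 with the replicate block (range 0.020 to 0.13). The iron importer Slc11a2 stood at 68.3 ± 10.1, 115 ± 19.4 and 90.2 ± 38.6 (SD, n = 3) and the copper importer Slc31a1 at 82.5 ± 35.9, 109.8 ± 34.8 and 103 ± 66.6. Slc40a1, the iron exporter ferroportin, and Slc11a1, which macrophages use to move metal out of phagosomes, were too sparse to test, with 0, 2 and 4 counts and 6, 1 and 3 counts over the 3 groups.

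Of 20 tested genes of iron and haem handling, 3 rose and 1 fell in TGFβ-iTreg cells, 4 rose and 6 fell in mTO-iTreg cells, and 2 were higher and 5 lower in mTO-iTreg than in TGFβ-iTreg cells. Over all tested genes 9.78% rose and 8.8% fell, 19.4% rose and 14.5% fell, and 14.9% were higher and 11.8% lower. The list's median log2 changes were 0.17, -0.04 and -0.49, beside -0.02, 0.09 and 0.13 for all genes. The ferritin chains, which store iron together, moved apart. Ftl1 stood at 1875, 2161 and 1709 on day 0, 1722, 1927 and 1543 in TGFβ-iTreg cells and 3309, 3244 and 3838 in mTO-iTreg cells. It rose 1.81-fold in mTO-iTreg cells (log2 change 0.86 ± 0.13 SE, adjusted p = 0.00021). Fth1 stood at 5634, 5234 and 4928 on day 0, 3207, 3069 and 3372 in TGFβ-iTreg cells and 2903, 3532 and 3186 in mTO-iTreg cells. It fell in TGFβ-iTreg (log2 change -0.71 ± 0.11 SE, adjusted p = 0.00062) and in mTO-iTreg cells (log2 change -0.72 ± 0.11 SE, adjusted p = 0.00022). The iron-sulphur protein genes Cisd1 and Cisd2 likewise differed in sign in mTO-iTreg cells, with log2 changes against day 0 of 1.50 (adjusted p = 5.9e-05) and -1.29 (adjusted p = 0.00011). Hmox2, the constitutive haem oxygenase, was highest in TGFβ-iTreg cells, at 824, 808 and 1516 against 309, 185 and 508 on day 0 and 254, 301 and 345 in mTO-iTreg cells (log2 change 1.70 ± 0.32 SE, adjusted p = 0.0024 against day 0).

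Of 20 tested genes in families that carry sodium, protons, potassium, calcium, chloride and bicarbonate, 2 rose and 2 fell in TGFβ-iTreg cells. In mTO-iTreg cells 2 rose and 4 fell against day 0, and 2 were higher and 3 lower than in TGFβ-iTreg cells. As shares these were 10% and 10%, 10% and 20%, and 10% and 15%. Beside them, all tested genes had 9.78% and 8.8%, 19.4% and 14.5%, and 14.9% and 11.8%. Genes were counted by family, so some are not transporters. The scaffold gene Slc9a3r1 is among those that fell or were lower in mTO-iTreg cells, and the adaptor gene Slc4a1ap among those higher. Slc4a2 exchanges chloride for bicarbonate and so acidifies the cytosol (chromosome 5, 24423837 to 24440950). It stood at 133, 137 and 146 on day 0, 95.9, 119 and 110.2 in TGFβ-iTreg cells and 38.2, 51.5 and 31.9 in mTO-iTreg cells. Every mTO-iTreg library was below all others. It fell 3.42-fold against day 0 (log2 change -1.78 ± 0.29 SE, adjusted p = 0.00036) and was 2.67-fold lower than in TGFβ-iTreg cells (log2 change -1.42 ± 0.29 SE, adjusted p = 0.0027). Slc12a2, the cotransporter NKCC1 that brings sodium, potassium and chloride into cells, stood at 84.2, 102 and 90.7 on day 0, 138, 100.4 and 132 in TGFβ-iTreg cells and 50.5, 52.7 and 55.1 in mTO-iTreg cells. It was 2.34-fold lower in mTO-iTreg than in TGFβ-iTreg cells (log2 change -1.20 ± 0.28 SE, adjusted p = 0.0061). Its lower level against day 0 (-0.79, adjusted p = 0.040) ended in 10 of 17 refits, with an adjusted p of 0.052 and 0.060 with TGFβ-iTreg replicates 2 and 3 left out, 0.056, 0.10 and 0.077 with day 0 replicates 1, 2 and 3 left out, 0.088, 0.071 and 0.065 with mTO-iTreg replicates 1, 2 and 3 left out, 0.13 with libraries scaled to equal totals and 0.062 with the replicate block. It ranged from 0.031 to 0.13 over the refits. Slc12a7, which carries potassium and chloride out of cells, stood at 453, 288 and 412 on day 0, 212, 223 and 239 in TGFβ-iTreg cells and 206, 259 and 112 in mTO-iTreg cells. It fell 2.0-fold in mTO-iTreg cells (log2 change -1.05 ± 0.28 SE, adjusted p = 0.010). TGFβ-iTreg libraries were also all below day 0 for Slc12a7, without passing (log2 change -0.75 ± 0.28 SE, adjusted p = 0.080).

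Slc9a9, a sodium-proton exchanger of endosomes, and Slc26a11, of the anion exchanger family, fell in TGFβ-iTreg cells. Slc9a9 stood at 70.2, 51.1 and 48.5 on day 0, 12.3, 13.6 and 12.4 in TGFβ-iTreg cells and 15, 42.2 and 27.9 in mTO-iTreg cells. It fell 4.44-fold there (log2 change -2.05 ± 0.50 SE, adjusted p = 0.011), while the mTO-iTreg libraries lay between (log2 change -1.07 ± 0.50 SE, adjusted p = 0.11). Slc26a11 stood at 128, 69.9 and 94.9 on day 0, 9.84, 19 and 29.1 in TGFβ-iTreg cells and 24.6, 53.3 and 81 in mTO-iTreg cells. It fell 5.05-fold (log2 change -2.36 ± 0.52 SE, adjusted p = 0.0067). Slc12a8, named for its place in the cation-chloride family, was read almost only in mTO-iTreg cells, at 3.51, 0 and 0 on day 0, 2.46, 0 and 0 in TGFβ-iTreg cells and 26.6, 19.2 and 80.4 in mTO-iTreg cells. It was higher there than on day 0 (log2 change 4.43 ± 0.97 SE, adjusted p = 0.0032) and than in TGFβ-iTreg cells (log2 change 4.56 ± 0.97 SE, adjusted p = 0.0036). On 2, 1 and 191 counts, the pooled ratio of mTO-iTreg to day 0 was 39.4 (95% counting interval 10.8 to 327) and that to TGFβ-iTreg 163 (95% counting interval 28.9 to 6461). Slc9a3r1, a scaffold that anchors transporters and other membrane proteins to the cytoskeleton, stood at 832, 634 and 691 on day 0, 772, 621 and 929.8 in TGFβ-iTreg cells and 391, 315 and 353 in mTO-iTreg cells. It fell 2.04-fold in mTO-iTreg cells against day 0 (log2 change -1.02 ± 0.18 SE, adjusted p = 0.00057) and was lower there than in TGFβ-iTreg cells (log2 change -1.12 ± 0.18 SE, adjusted p = 0.00044). Slc4a11, of the bicarbonate transporter family, and Slc9b2, of the sodium-proton exchanger family, were sparse. Slc4a11 stood at 3.51, 0 and 0 on day 0, 29.5, 23.1 and 8.89 in TGFβ-iTreg cells and 16.4, 9.31 and 3.32 in mTO-iTreg cells, on 2 day 0 counts. The pooled ratio to day 0 was 15.5 (95% counting interval 4.12 to 131) in TGFβ-iTreg (adjusted p = 0.014) and 9.07 (95% counting interval 2.37 to 77.2) in mTO-iTreg cells (adjusted p = 0.046). The first ended in some refits, at an adjusted p of 0.059 and 0.056 with TGFβ-iTreg replicates 1 and 2 left out and 0.098 with limma-voom, in a range of 0.0091 to 0.098. The second ended in some, at 0.055, 0.068 and 0.055 with TGFβ-iTreg replicates 1, 2 and 3 left out, 0.11 and 0.12 with day 0 replicates 2 and 3 left out, 0.16 and 0.10 with mTO-iTreg replicates 1 and 2 left out, 0.17 with limma-voom, 0.070 with no filter and 0.086 with a pseudocount of 5, in a range of 0.019 to 0.17. Slc9b2 stood at 5.26, 18.8 and 1.05 on day 0, 91, 60.4 and 58.8 in TGFβ-iTreg cells and 24.6, 0.62 and 38.5 in mTO-iTreg cells. Its call in TGFβ-iTreg cells (adjusted p = 0.039) did not hold in every refit, with an adjusted p of 0.11, 0.085 and 0.085 with TGFβ-iTreg replicates 1, 2 and 3 left out, 0.090 and 0.13 with day 0 replicates 1 and 3 left out, 0.083 with limma-voom, 0.064 with no filter, 0.053 with a pseudocount of 0.5 and 0.052 with the replicate block. It ranged from 0.0070 to 0.13 over the refits. Slc4a1ap, which encodes an adaptor and no transporter, stood at 118, 164 and 167 on day 0, 86.1, 84.8 and 91.4 in TGFβ-iTreg cells and 123, 157 and 199 in mTO-iTreg cells. Its call between the iTreg groups (adjusted p = 0.029) did not hold in every refit either, with 0.068, 0.074 and 0.060 with TGFβ-iTreg replicates 1, 2 and 3 left out and 0.065 and 0.12 with mTO-iTreg replicates 2 and 3 left out. It ranged from 0.023 to 0.12 over the refits.

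**Figure D4:**
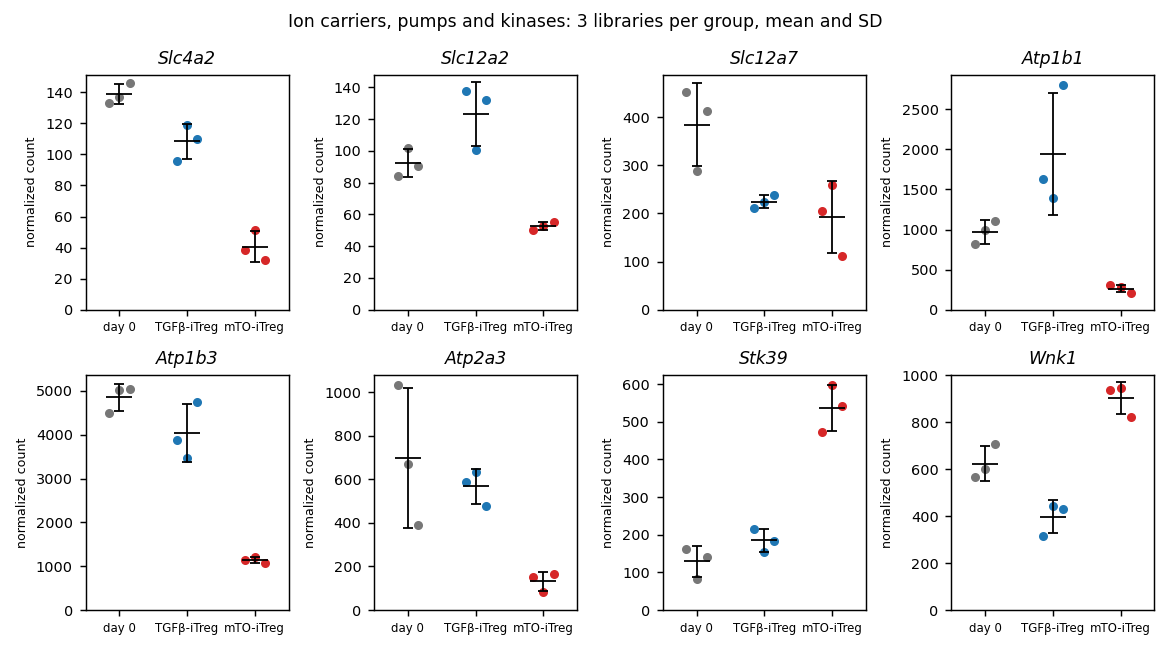
Normalized counts (vertical axes, from 0) of ion carriers, ion pumps and the kinases Stk39 and Wnk1 in the 3 libraries of each group; points are libraries, horizontal bars the mean and vertical bars the SD. Slc4a2, Atp1b1, Atp1b3 and Atp2a3 are lowest, and Stk39 and Wnk1 highest, in the 3 mTO-iTreg libraries.

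The pumps that build the gradients these carriers use are in the plot of ion genes as well. Of 17 tested genes of pumps, channels and their kinases, 2 rose and 1 fell in TGFβ-iTreg cells, 3 rose and 5 fell in mTO-iTreg cells, and 2 were higher and 6 lower in mTO-iTreg than in TGFβ-iTreg cells. The shares over all tested genes were 9.78% and 8.8%, 19.4% and 14.5%, and 14.9% and 11.8% in the same order. The median log2 changes of the list were -0.07, -0.35 and -0.40, beside -0.02, 0.09 and 0.13 for all genes. Atp1b3, a beta subunit of the sodium-potassium pump, stood at 4500.1, 5029 and 5038 on day 0, 3884, 3461 and 4759 in TGFβ-iTreg cells and 1139.7, 1218 and 1068 in mTO-iTreg cells. It fell 4.25-fold in mTO-iTreg cells (log2 change -2.09 ± 0.13 SE, adjusted p = 1.1e-07). Atp1b1, another beta subunit, stood at 816, 989 and 1104 on day 0, 1633, 1388 and 2802 in TGFβ-iTreg cells and 303, 280.4 and 209 in mTO-iTreg cells, with no overlap between any groups. It fell 3.67-fold in mTO-iTreg cells (log2 change -1.88 ± 0.23 SE, adjusted p = 4.3e-05), and in TGFβ-iTreg cells it was 2.0-fold higher (log2 change 0.94 ± 0.23 SE, adjusted p = 0.013). That call ended without day 0 replicate 1 (0.058, within 0.0036 to 0.058 over the refits). Atp2a3, a calcium pump of the endoplasmic reticulum in blood cells, stood at 1032, 672 and 390.3 on day 0, 588, 635 and 479 in TGFβ-iTreg cells and 150.1, 81.9 and 165 in mTO-iTreg cells. It fell 5.28-fold in mTO-iTreg cells (log2 change -2.34 ± 0.32 SE, adjusted p = 9.7e-05).

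Stk39 and Wnk1 encode kinases of the pathway that switches the cotransporter NKCC1 on. Stk39 stood at 163, 83.3 and 140.3 on day 0, 216, 155 and 184 in TGFβ-iTreg cells and 473, 596 and 541 in mTO-iTreg cells. It rose 4.16-fold in mTO-iTreg cells (log2 change 2.10 ± 0.25 SE, adjusted p = 3.1e-05). Wnk1 stood at 565, 599 and 706 on day 0, 317, 444 and 432 in TGFβ-iTreg cells and 936, 945 and 824 in mTO-iTreg cells. It was 2.27-fold higher in mTO-iTreg than in TGFβ-iTreg cells (log2 change 1.19 ± 0.16 SE, adjusted p = 0.00015). Against day 0 its difference was -0.66 in TGFβ-iTreg (adjusted p = 0.013) and 0.54 in mTO-iTreg cells (adjusted p = 0.022). For TGFβ-iTreg cells the adjusted p was 0.052 with day 0 replicate 3 left out, 0.061 with TGFβ-iTreg replicate 1 left out and 0.12 with libraries scaled to equal totals. It ranged from 0.012 to 0.12 over the refits. For mTO-iTreg cells it was 0.078 and 0.059 with day 0 replicates 1 and 2 left out and 0.065 and 0.063 with mTO-iTreg replicates 1 and 2 left out. It ranged from 0.0048 to 0.078 over the refits.

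The phosphate importer Slc20a1 fell in both iTreg groups. Slc20a1, whose promoter holds E-boxes as shown above, encodes PiT-1, a sodium-phosphate cotransporter of the cell surface (chromosome 2, 129198764 to 129211616). It stood at 437, 328 and 443 on day 0, 138, 165 and 119 in TGFβ-iTreg cells and 194, 217 and 97.6 in mTO-iTreg cells. Every iTreg library was below every day 0 library. It fell 2.86-fold in TGFβ-iTreg cells (log2 change -1.51 ± 0.28 SE, adjusted p = 0.0025) and 2.38-fold in mTO-iTreg cells (log2 change -1.31 ± 0.28 SE, adjusted p = 0.0029), and the iTreg groups overlapped (log2 change 0.20, 95% interval -0.41 to 0.81). Slc17a9 loads ATP into vesicles, and stood at 284, 290.3 and 282 on day 0, 315, 444 and 516 in TGFβ-iTreg cells and 136, 255 and 268 in mTO-iTreg cells. It was 1.94-fold lower in mTO-iTreg than in TGFβ-iTreg cells (log2 change -0.98 ± 0.26 SE, adjusted p = 0.012). That call ended without TGFβ-iTreg replicate 3 (0.060, within 0.0023 to 0.060 over the refits).

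Of 25 tested carriers of nucleosides and nucleotide sugars, 3 rose and 2 fell in TGFβ-iTreg cells, 5 rose and 4 fell in mTO-iTreg cells, and 3 were higher and 4 lower in mTO-iTreg than in TGFβ-iTreg cells. As shares these were 12% and 8%, 20% and 16%, and 12% and 16%. They lay near those of all tested genes, at 9.78% and 8.8%, 19.4% and 14.5%, and 14.9% and 11.8%. Slc29a1, the equilibrative nucleoside transporter ENT1, moves adenosine and other nucleosides down their gradient (chromosome 17, 45585200 to 45599606). It stood at 146, 159 and 217 on day 0, 748, 1015 and 1403 in TGFβ-iTreg cells and 238, 399 and 358 in mTO-iTreg cells, with no overlap between groups. It rose 6.07-fold in TGFβ-iTreg cells (log2 change 2.57 ± 0.25 SE, adjusted p = 2.1e-05) and was 3.18-fold lower in mTO-iTreg than in TGFβ-iTreg cells (log2 change -1.65 ± 0.25 SE, adjusted p = 0.00036). Its smaller rise in mTO-iTreg cells (1.91-fold; log2 change 0.92 ± 0.25 SE, adjusted p = 0.013) did not hold in every refit, with an adjusted p of 0.053 with day 0 replicate 1 left out, 0.057 and 0.0501 with mTO-iTreg replicates 2 and 3 left out and 0.093 with limma-voom. It ranged from 0.0024 to 0.093 over the refits. Slc28a2, which takes up purine nucleosides together with sodium, went the other way, at 168, 108 and 146 on day 0, 103, 83.4 and 50.9 in TGFβ-iTreg cells and 20.5, 54 and 46.5 in mTO-iTreg cells. It fell 3.49-fold in mTO-iTreg cells (log2 change -1.86 ± 0.41 SE, adjusted p = 0.0032), and in TGFβ-iTreg cells all libraries were below day 0 without passing (log2 change -0.85 ± 0.41 SE, adjusted p = 0.17). Slc43a3, a purine nucleobase transporter, is counted below with its family and is not among the 25. Its values were 19.3, 26.9 and 28.5 on day 0, 118, 139 and 108 in TGFβ-iTreg cells and 98.2, 116 and 88.3 in mTO-iTreg cells. It rose 4.89-fold in TGFβ-iTreg (log2 change 2.26 ± 0.32 SE, adjusted p = 0.00032) and 4.05-fold in mTO-iTreg cells (log2 change 1.99 ± 0.32 SE, adjusted p = 0.00032). All iTreg libraries of Slc43a3 were above all day 0 libraries.

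Slc35a5 and Slc35b3 fell in both iTreg groups against day 0. Slc35a5, of the nucleotide sugar transporter family and with the E-boxes shown above, stood at 296, 266 and 306 on day 0, 130.4, 146 and 197 in TGFβ-iTreg cells and 47.1, 68.9 and 57.8 in mTO-iTreg cells, in falling steps without overlap (chromosome 16, 45139573 to 45158706). It fell 5.0-fold in mTO-iTreg cells (log2 change -2.32 ± 0.25 SE, adjusted p = 1.3e-05) and was 2.73-fold lower there than in TGFβ-iTreg cells (log2 change -1.43 ± 0.25 SE, adjusted p = 0.00091). The fall from day 0 to TGFβ-iTreg cells (-0.89, adjusted p = 0.023) did not hold in every refit, with an adjusted p of 0.087 and 0.075 with TGFβ-iTreg replicates 1 and 2 left out, 0.067 and 0.069 with day 0 replicates 1 and 3 left out and 0.094 with libraries scaled to equal totals. It ranged from 0.020 to 0.094 over the refits. Slc35b3 brings PAPS, the sulphate donor, into the Golgi apparatus, and stood at 509, 454 and 474 on day 0, 357, 273 and 361 in TGFβ-iTreg cells and 224, 185 and 217 in mTO-iTreg cells. It fell 2.3-fold in mTO-iTreg cells (log2 change -1.20 ± 0.18 SE, adjusted p = 0.00016). The value between the iTreg groups (-0.65, adjusted p = 0.014) did not hold in every refit, with an adjusted p of 0.055 and 0.059 with TGFβ-iTreg replicates 1 and 3 left out. It ranged from 0.0075 to 0.059 over the refits. The call in TGFβ-iTreg cells (-0.54, adjusted p = 0.045) ended in 11 of 17 refits, with an adjusted p of 0.067, 0.17 and 0.065 with TGFβ-iTreg replicates 1, 2 and 3 left out, 0.13, 0.075 and 0.090 with day 0 replicates 1, 2 and 3 left out, 0.051 with mTO-iTreg replicate 1 left out, 0.052 with TMM factors, 0.25 with libraries scaled to equal totals, 0.061 with limma-voom and 0.052 with no filter. It ranged from 0.042 to 0.25 over the refits. Slc35d3 was at 0 in all 6 day 0 and TGFβ-iTreg libraries and at 18.4, 19.2 and 39.9 in mTO-iTreg cells (adjusted p = 0.00098 and adjusted p = 0.0015). Setting each group at 0 to a floor of 3 counts in all, Slc35d3 in mTO-iTreg cells was at least 16.3-fold higher than day 0 and at least 33.6-fold higher than TGFβ-iTreg cells. Such floors, like the counting intervals, cover counting error only. Slc35c2 stood at 82.5, 83.3 and 123 on day 0, 91, 115 and 71.1 in TGFβ-iTreg cells and 132, 228 and 238 in mTO-iTreg cells, with mTO-iTreg above the other groups (log2 change 1.02 against day 0 and 1.08 against TGFβ-iTreg, with adjusted p = 0.020 and adjusted p = 0.018). The first ended in some refits, at an adjusted p of 0.063 and 0.058 with day 0 replicates 1 and 2 left out, 0.073 and 0.084 with mTO-iTreg replicates 2 and 3 left out and 0.073 with limma-voom, in a range of 0.0083 to 0.084. The second ended in some, at 0.075 with TGFβ-iTreg replicate 3 left out and 0.070 and 0.079 with mTO-iTreg replicates 2 and 3 left out, in a range of 0.0095 to 0.079. Slc35f5 stood at 0, 0 and 4.22 on day 0, 4.92, 27.8 and 41 in TGFβ-iTreg cells and 25.9, 1.24 and 15.9 in mTO-iTreg cells. Its call in TGFβ-iTreg cells (adjusted p = 0.043) did not hold in every refit, with an adjusted p of 0.13 and 0.16 with TGFβ-iTreg replicates 2 and 3 left out, 0.12 and 0.11 with day 0 replicates 1 and 2 left out, 0.055 with mTO-iTreg replicate 3 left out, 0.062 with a filter at 20, 0.14 with limma-voom and 0.068 with no filter. It ranged from 0.025 to 0.16 over the refits. Slc35g1 stood at 78.9, 59.1 and 44.3 on day 0, 19.7, 27.8 and 39 in TGFβ-iTreg cells and 40.9, 83.1 and 100.3 in mTO-iTreg cells. Its call between the iTreg groups (adjusted p = 0.044) did not hold in every refit either, with 0.13 and 0.091 with TGFβ-iTreg replicates 1 and 2 left out, 0.12 and 0.16 with mTO-iTreg replicates 2 and 3 left out, 0.055 with TMM factors, 0.077 with limma-voom, 0.062 with no filter and 0.055 with the replicate block. It ranged from 0.021 to 0.16 over the refits.

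**Figure D5:**
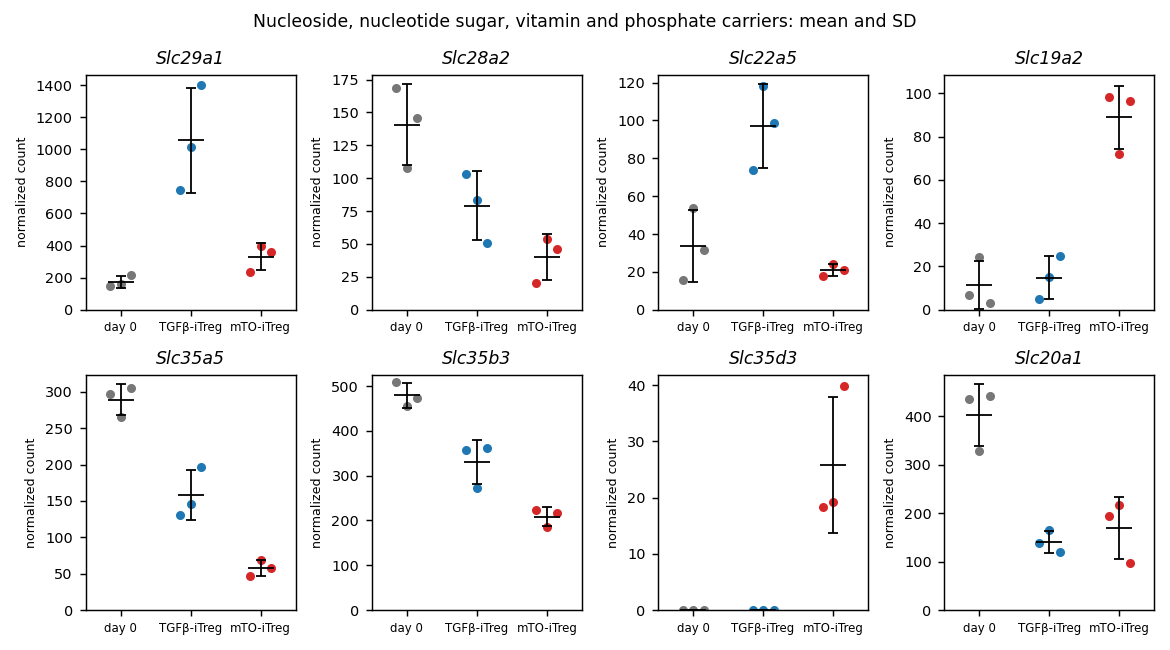
Normalized counts (vertical axes, from 0) of nucleoside, nucleotide sugar, vitamin, carnitine and phosphate carriers in the 3 libraries of each group; points are libraries, horizontal bars the mean and vertical bars the SD. Slc29a1 and Slc22a5 are highest in the TGFβ-iTreg libraries, Slc19a2 and Slc35d3 in the mTO-iTreg libraries, and Slc35a5, Slc35b3 and Slc20a1 on day 0.

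Of 16 tested carriers of vitamins, choline, carnitine and organic ions, 2 rose in TGFβ-iTreg cells, 3 rose in mTO-iTreg cells, and 4 were higher and 2 lower in mTO-iTreg than in TGFβ-iTreg cells. As shares, 12.5% and 18.75% rose, and 25% were higher and 12.5% lower. Of all tested genes 9.78% and 19.4% rose, and 14.9% were higher and 11.8% lower. Slc19a2, a thiamine importer, stood at 7.02, 24.2 and 3.16 on day 0, 4.92, 14.9 and 24.7 in TGFβ-iTreg cells and 98.2, 72 and 96.3 in mTO-iTreg cells (chromosome 1, 164249046 to 164265385). It rose 7.75-fold in mTO-iTreg cells (log2 change 3.24 ± 0.71 SE, adjusted p = 0.0033), and was 5.98-fold higher there than in TGFβ-iTreg cells (log2 change 2.73 ± 0.71 SE, adjusted p = 0.012). That call ended without TGFβ-iTreg replicate 1 (0.0505, within 0.0034 to 0.0505 over the refits). Slc22a5 takes up carnitine, which mitochondria need to burn long-chain fatty acids, and stood at 15.8, 53.8 and 31.6 on day 0, 73.8, 118 and 98.8 in TGFβ-iTreg cells and 17.7, 24.2 and 21.3 in mTO-iTreg cells. It was 4.6-fold lower in mTO-iTreg than in TGFβ-iTreg cells (log2 change -2.13 ± 0.47 SE, adjusted p = 0.0047). The rise from day 0 to TGFβ-iTreg cells (log2 change 1.63 ± 0.47 SE, adjusted p = 0.029) did not hold in every refit, with an adjusted p of 0.11 and 0.089 with TGFβ-iTreg replicates 2 and 3 left out and 0.099 and 0.054 with day 0 replicates 1 and 3 left out. It ranged from 0.013 to 0.11 over the refits. Slc46a1, the proton-coupled folate transporter, stood at 0, 8.06 and 0 on day 0, 39.4, 38.7 and 22.2 in TGFβ-iTreg cells and 8.87, 16.1 and 3.99 in mTO-iTreg cells. It rose in TGFβ-iTreg cells (log2 change 4.0 ± 0.91 SE, adjusted p = 0.0081). On 3 day 0 counts the pooled ratio was 19 (95% counting interval 6.36 to 93.6). Slc22a2, an organic cation transporter best known from the kidney, stood at 0, 0 and 5.27 on day 0, 0, 3.39 and 0 in TGFβ-iTreg cells and 36.8, 29.8 and 16.6 in mTO-iTreg cells, on 5, 5 and 127 counts. It was higher in mTO-iTreg cells than on day 0 (log2 change 3.89 ± 1.0 SE, adjusted p = 0.0083) and than in TGFβ-iTreg cells (log2 change 4.06 ± 1.0 SE, adjusted p = 0.0086). The reduced folate carrier Slc19a1 stood at 29.1 ± 0.856, 57.9 ± 34.2 and 48.7 ± 13 (SD, n = 3) and was called in no comparison, nor were the choline carrier Slc44a1 and Slc46a3. Slc23a2, which takes up vitamin C, stood at 94.7, 96.8 and 64.4 on day 0, 182, 125 and 64.7 in TGFβ-iTreg cells and 49.8, 46.5 and 61.1 in mTO-iTreg cells. It was lower in mTO-iTreg than in TGFβ-iTreg cells (log2 change -1.11 ± 0.38 SE, adjusted p = 0.043). That call ended in some refits, at an adjusted p of 0.19 and 0.12 with TGFβ-iTreg replicates 1 and 2 left out, 0.052 with day 0 replicate 1 left out, 0.098, 0.10 and 0.062 with mTO-iTreg replicates 1, 2 and 3 left out and 0.056 with no filter. It ranged from 0.011 to 0.19 over the refits.

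Among 6 tested carriers of lipids, acetyl-CoA and bile acids, Slc10a3 and Slc27a3 were called. Called in either direction were 33.3% in mTO-iTreg cells against day 0 and 33.3% against TGFβ-iTreg cells, where 33.9% and 26.6% of all tested genes were. Slc10a3, a member of the bile acid transporter family by sequence, stood at 379, 312 and 419 on day 0, 526, 345 and 288 in TGFβ-iTreg cells and 97.5, 89.9 and 32.5 in mTO-iTreg cells. Every mTO-iTreg library was below all others (chromosome X, 74369217 to 74373349). It fell 5.04-fold against day 0 (log2 change -2.46 ± 0.36 SE, adjusted p = 0.00016) and was 5.27-fold lower than in TGFβ-iTreg cells (log2 change -2.49 ± 0.36 SE, adjusted p = 0.00023). Slc27a3, of the fatty acid transport family, was at 0 in all TGFβ-iTreg libraries and at 19.8, 9.93 and 13.3 in mTO-iTreg cells (adjusted p = 0.0099), at least 18.7-fold higher on the same floor. Slc27a3 was named after its values were seen. Slc33a1, which moves acetyl-CoA into the endoplasmic reticulum, stood at 57.9 ± 8.28, 64.9 ± 9.2 and 67.4 ± 28.2 (SD, n = 3) and was called in no comparison.

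Of 16 tested genes in the remaining families, of peptides, sugar phosphates and amino acids, 1 rose in TGFβ-iTreg cells. It was the nucleobase transporter Slc43a3, above, which is counted here by its family. In mTO-iTreg cells 5 rose, Slc43a3 among them, and 1 fell against day 0, and 2 were higher than in TGFβ-iTreg cells. As shares these were 6.25%, 31.25% and 6.25%, and 12.5%. Of all tested genes 9.78% rose, 19.4% rose and 14.5% fell, and 14.9% were higher. The one that fell, Slc36a1, exports amino acids from lysosomes and holds an E-box as shown above. It stood at 89.5, 88.7 and 109.7 on day 0, 24.6, 72.6 and 40.5 in TGFβ-iTreg cells and 27.3, 29.2 and 20.6 in mTO-iTreg cells. It fell 3.74-fold in mTO-iTreg cells (log2 change -1.87 ± 0.43 SE, adjusted p = 0.0042). TGFβ-iTreg libraries were below day 0 as well, without passing (log2 change -1.17 ± 0.43 SE, adjusted p = 0.074). Slc43a1, a carrier of branched-chain and other large neutral amino acids, stood at 5.26, 8.06 and 0 on day 0, 9.84, 10.2 and 4.45 in TGFβ-iTreg cells and 28, 35.4 and 38.5 in mTO-iTreg cells. It rose 7.64-fold in mTO-iTreg cells (log2 change 3.17 ± 0.83 SE, adjusted p = 0.0092). Slc45a4 stood at 14, 5.38 and 30.6 on day 0, 41.8, 38 and 16.3 in TGFβ-iTreg cells and 79.8, 58.3 and 99.6 in mTO-iTreg cells. It rose 4.75-fold there (log2 change 2.44 ± 0.60 SE, adjusted p = 0.0065). Slc15a3 carries histidine and small peptides out of lysosomes, mostly in myeloid cells, and stood at 0, 0 and 2.11 on day 0, 2.46, 2.03 and 1.48 in TGFβ-iTreg cells and 43.7, 9.93 and 19.3 in mTO-iTreg cells (log2 change 3.88 ± 0.88 SE, adjusted p = 0.0038 for mTO-iTreg against day 0). On 2 day 0 and 109 mTO-iTreg counts the pooled ratio was 22.5 (95% counting interval 6.07 to 188). Of the 10 tested myeloid and antigen-presenting markers, H2-Eb1 rose in mTO-iTreg cells against day 0, as Slc15a3 did, and 5 fell (Ctss, Fcer1g, H2-Aa, H2-Ab1 and Tyrobp). H2-Eb1 stood at 344, 175 and 1985 on day 0, 41.8, 139.7 and 53.4 in TGFβ-iTreg and 2331, 1410.0 and 1817 in mTO-iTreg cells. Between the iTreg groups H2-Eb1 and H2-Ab1 were higher and Ctss lower in mTO-iTreg cells. Over all tested genes 19.4% rose and 14.5% fell in mTO-iTreg cells against day 0, and 14.9% were higher and 11.8% lower between the iTreg groups. The part of myeloid RNA in the values of Slc15a3 was not tested.

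The 60 members that were not tested reached at most 21.5 in any library (Slc15a5), and 4 of them were at 0 in all 9 libraries. They were spread over the roles, which were assigned by family. Untested were 18 of 38 genes of ion carrier families and 13 of 29 of vitamins and organic ions. So were 7 of 11 of phosphate and vesicle anions and 5 of 41 mitochondrial carriers. The 7 families left out held 56 genes, of which 31 were tested. In those, 4 rose and 2 fell in TGFβ-iTreg cells, 12 rose and 4 fell in mTO-iTreg cells, and 7 were higher and 3 lower in mTO-iTreg than in TGFβ-iTreg cells. As shares these were 12.9% and 6.45%, 38.7% and 12.9%, and 22.6% and 9.68%. Beside them, all tested genes had 9.78% and 8.8%, 19.4% and 14.5%, and 14.9% and 11.8%. No test of a difference between the families left out and the 148 was made.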

How the data were processed

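The data are 9 bulk libraries made by a modified CEL-Seq protocol, per the labels' protocols. The authors deposited 1 table of normalized counts, in which each column holds whole multiples of the value of 1 count, so each is a count divided by a size factor of the library. BWA, mm10 and DESeq2 are named in the submitters' processing notes; no version, parameter or annotation is given in the sources used here. All values came out whole within 0.1 of a count. Libraries were grouped by their titles and labels.

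Genes with a normalized count of at least 5 in at least 3 libraries were tested on log2(value + 1) with limma 3.58.1 in R 4.3.3 (empirical Bayes with a mean trend) on all 9 libraries with 6 residual degrees of freedom, and p-values were Benjamini-Hochberg adjusted over all 10983 genes. A gene rose or fell at an adjusted p under 0.05. Fold changes in the text are ratios of group means, and log2 changes on the log2(value + 1) scale understate low genes. The fit was tested on simulated data. Gene positions are from GENCODE M21 (GRCm38) and promoter sequences from RefSeq (GRCm38.p6); 207 of 208 members matched a position and 113 of 148 tested members a promoter. A CEL-Seq read marks the 3' end, so reads of close copies may be divided.

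Named members are, per comparison, called members with no overlap and a mean of at least 20 (up to 12 each way), up to 3 called members of each role, and a set of 25 chosen by function. The members, roles and lists were chosen with earlier results of these data known. Alternatives were other pseudocounts, filters, scalings, a fold threshold, a replicate block, each library left out and, added after seeing the data, limma-voom on recovered counts. A few named genes are not reported here.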

Additional observations from a re-analysis of the deposited data

How the results depend on the processing

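No called change of a solute carrier changed direction under any alternative, while values that were not called and lie near 0 could, as that of Slc25a4 in mTO-iTreg cells against day 0 did (log2 change 0.01, and -0.14 without day 0 replicate 1). Of the values of named genes, 2716 kept their side of the threshold, 27 came to pass it and 191 no longer did. Counts of members moved more. With a filter at 20, 16 rose in mTO-iTreg cells against day 0 and 11 were higher in mTO-iTreg than in TGFβ-iTreg cells, from fewer genes tested. In TGFβ-iTreg cells against day 0, 4 fell with library totals made equal, 8 rose with limma-voom, and 4 fell where a log2 change of 1 was also required; the cause of the first of these was not tested. Leaving out each library in turn, 8 to 18 rose and 4 to 7 fell in TGFβ-iTreg cells, 16 to 24 rose and 12 to 15 fell in mTO-iTreg cells, and 11 to 21 were higher and 13 to 18 lower in mTO-iTreg than in TGFβ-iTreg cells. The low ends came without a single library: in TGFβ-iTreg cells 11 rose without day 0 replicate 1 or 2, 9 without TGFβ-iTreg replicate 1 and 8 without its replicate 2 or 3, and 4 fell without day 0 replicate 2 or TGFβ-iTreg replicate 1. In mTO-iTreg cells 16 rose without mTO-iTreg replicate 2, and 11 were higher than in TGFβ-iTreg cells without TGFβ-iTreg replicate 1 or mTO-iTreg replicate 3. With the replicate number as a block, 16 rose and 7 fell in TGFβ-iTreg cells, 23 and 13 in mTO-iTreg cells, and 16 were higher and 18 lower between the iTreg groups. Nothing in the labels says that equal numbers pair libraries: deviations of libraries with the same number correlated between -0.05 and 0.06, and 5 of 9 libraries were closest to their own number. The edgeR and DESeq2 tests on recovered counts were not run, and limma-voom, added after seeing the data, stands in for them. A single count is worth up to 2.69 normalized counts, so differences between values of a few counts were not detectable at this depth.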
